A study of Homo sapiens with 6 samples.

Results

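The steroidogenic line was followed in RNA sequencing counts as 10 genes: STAR, the enzymes CYP11A1, HSD3B2, CYP17A1, CYP21A2, CYP11B1 and CYP11B2, and the electron carriers POR, FDX1 and FDXR. All 10 were rows of the deposited table, which lists 57341 named genes. The cells were H295R, an established human adrenocortical carcinoma line, untreated and grown in a serum-supplemented medium. There were 3 libraries labelled as parental H295R and 3 labelled H295R-PM-Ptc+, the name of cells of that line sorted by an antibody for Ptch1, the Hedgehog receptor, at the cell surface and then expanded. The sorted cells are thus 1 selected and expanded population, and no source used here says that the 3 replicates of a group were separate cultures or sorts. Their p-values measure the spread between these libraries, which may be technical.

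Steroid synthesis starts when STAR, the steroidogenic acute regulatory protein, moves cholesterol to the inner mitochondrial membrane, where CYP11A1 cleaves its side chain to give pregnenolone. HSD3B2, CYP17A1 and CYP21A2 carry the steroid on in the endoplasmic reticulum, and CYP11B1 and CYP11B2 complete cortisol and aldosterone in the mitochondrion. The mitochondrial P450 enzymes draw electrons from FDXR through FDX1, and the microsomal ones draw them from POR. The H295R line is used as a model because it makes steroids of all zones of the adrenal cortex.

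PTCH1, the gene of the sorted protein, had 441, 559 and 579 counts under the H295R label and 248, 326 and 319 under the H295R-PM-Ptc+ label. It was thus lower in every library that carries the name of the sorted cells, at a log2 fold change of -0.81 (SE 0.147, adjusted p = 0.0207, edgeR). That call did not hold without H295R replicate 2 (adjusted p = 0.0799), H295R replicate 3 (0.0921) or H295R-PM-Ptc+ replicate 2 (0.0618), where the log2 fold change was -0.78, -0.74 and -0.86. The pairs of same-numbered libraries differed by -0.93, -0.75 and -0.77, and a fit with the replicate number as a block gave an adjusted p of 1.72e-06. In the study's own table of normalized values the 6 columns match these libraries with the 2 group names exchanged. Both observations put the deposited naming in doubt. The counts alone do not settle which naming is correct, and the groups are named below as the deposited table labels them. Every direction below turns round if the names are to be exchanged.

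Between 23264403 and 25813247 counts fell on genes in each library. Replicates of a group differed beyond counting error, with a chi-square per gene of 6.07 to 28.8 where counting error alone would give about 1, and replicate 1 stood apart from replicates 2 and 3 in both groups. Deviations from the group means correlated between same-numbered libraries (0.647, 0.466 and 0.389 across genes for replicates 1, 2 and 3) and ranged from -0.499 to 0.254 between libraries of different number. The replicate number was therefore treated as pairing the groups, and a fit with it as a block is given beside the fit on group alone for the members and, where their call differed, for the other genes given by value. The adrenocortical identity of the cells showed in 7 of 8 markers that passed the filter on low counts, while MLANA had no count. Of the chromaffin markers DBH, PNMT and SLC18A1 had no count and TH reached at most 2, and of the 4 immune markers PTPRC and CD68 had none, CD3E at most 1 and CD14 15 to 32, higher in 3 of 3 pairs and called in neither fit. The 7 chromaffin markers summed to 65.2 to 76.7 CPM under the H295R label and 51.5 to 61.2 under the H295R-PM-Ptc+ label, nearly all of it CHGB. The 8 adrenocortical markers summed to 1178 to 1319 and 1711 to 1783 CPM, of which SCARB1 was the largest part. The higher sum came with SCARB1 (means of 817 and 1263 CPM) and SULT2A1 (70.2 and 106), and the list did not move as a whole. Of its 7 tested genes 4 had a log2 fold change above 0, against 50.2% of all tested genes. NR5A1 was at 367 and 351 CPM. INHA was at 3.85 and 2.89 CPM, lower without overlap but not called (adjusted p = 0.272, edgeR). The part of these differences in the results below was not tested. Fewer cells of a kind and less RNA per cell cannot be told apart in these bulk libraries.

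Transcripts of the line made up 0.102% to 0.146% of the counts of a library. The summed level of the 10 genes, in CPM (read counts scaled to the TMM-normalized library size), was 1272, 1034 and 1116 under the H295R label and 1420, 1127 and 1182 under the H295R-PM-Ptc+ label. The groups overlapped, replicate 1 was the highest of its group in both, and the sum was higher in 3 of 3 same-numbered pairs.

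Per kilobase of exon on the main chromosomes, where levels of different genes can be compared, STAR was the most abundant member in both groups, at 79.2 ± 18.9 CPM per kilobase under the H295R label and 105 ± 27.4 under the H295R-PM-Ptc+ label (mean ± SD, n = 3). FDXR followed with 55.0 ± 5.23 and 57.7 ± 4.08 and stood apart from STAR in every library. CYP11A1 (47.0 ± 8.10 and 39.5 ± 4.78), CYP17A1 (39.3 ± 1.22 and 36.1 ± 4.55), POR (37.9 ± 2.51 and 40.1 ± 2.19) and FDX1 (26.7 ± 0.925 and 28.8 ± 4.65) formed the middle of the order. Within it CYP17A1 and POR overlapped under the H295R label. Under the H295R-PM-Ptc+ label POR overlapped with CYP11A1, CYP11A1 with CYP17A1, and CYP17A1 with FDX1. FDXR and CYP11A1 overlapped in the former and did not in the latter.

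HSD3B2 and CYP21A2 lay well below these genes. HSD3B2 was at 7.09 ± 0.726 and 7.11 ± 1.64 CPM per kilobase, and CYP21A2 at 4.41 ± 0.753 and 8.08 ± 0.492. CYP21A2 was the lower of the pair under the H295R label, where the ranges were apart, and the 2 genes overlapped under the H295R-PM-Ptc+ label. Among all tested genes ranked on the same scale, CYP21A2 stood at percentile 50.4 and 64.4, whereas STAR stood at 97.0 and 98.1. CYP11B2 reached 0.121 ± 0.0740 and 0.229 ± 0.0746 CPM per kilobase, and CYP11B1 was lower still.

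**Figure D1:**
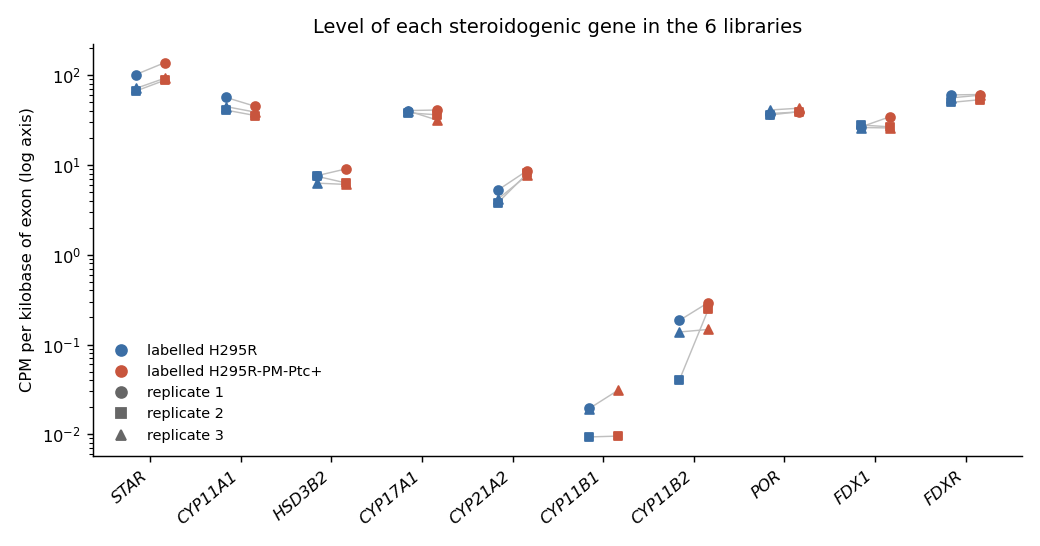
Level of each member in CPM per kilobase of exon (log axis) in the 3 libraries labelled H295R and the 3 labelled H295R-PM-Ptc+, with same-numbered libraries joined by a line. CYP21A2 lies higher in all 3 libraries labelled H295R-PM-Ptc+, and the 1 library without a CYP11B1 count (H295R-PM-Ptc+ replicate 1) has no point on the log axis.

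Of the 10 members, 9 passed the filter on low counts, and 1 of these 9 differed between the groups at an adjusted p under 0.05 (edgeR quasi-likelihood test on group alone). That member, CYP21A2, was higher under the H295R-PM-Ptc+ label. Over all 16710 tested genes the same test called 3.73%, with 2.42% higher and 1.32% lower. CYP21A2 was also the sole tested member whose groups did not overlap in CPM, against 23.5% of all tested genes. The log2 fold change was above 0 for 7 of the 9 members and for 50.2% of all tested genes, with a median of 0.08 over the members and of 0.0009 over all tested genes. In the 3 same-numbered pairs 6 of the 9 members kept 1 sign, against 52.6% of all tested genes.

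With the replicate number as a block, 3 of the 9 members were called, STAR and CYP21A2 as higher and CYP11A1 as lower. That fit called 22.5% of all tested genes (12.1% higher and 10.4% lower), so the background is also far larger. The estimates themselves hardly moved, and the standard errors of STAR and CYP11A1 fell most.

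**Figure D2:**
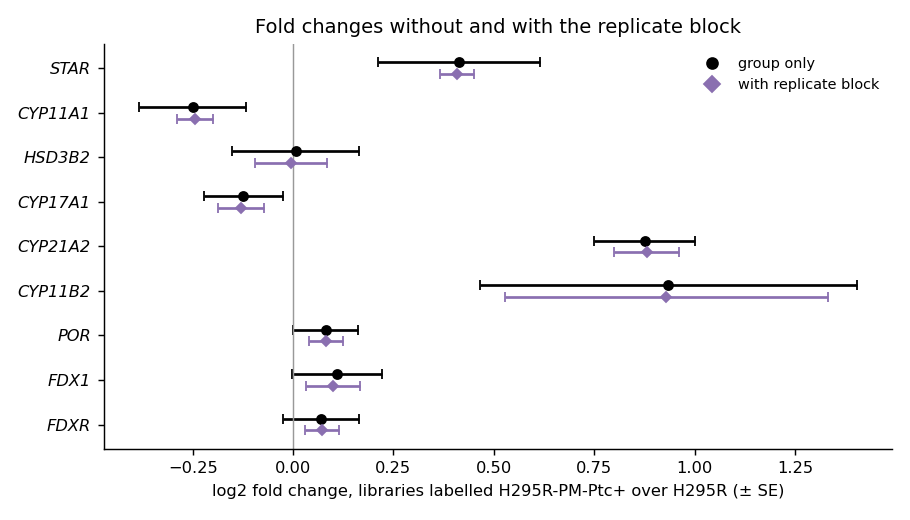
Log2 fold change of the 9 tested members (H295R-PM-Ptc+ label over H295R label) with its standard error, from edgeR on group alone (circles) and with the replicate block (diamonds). The point estimates of both fits lie close together, and the bars of STAR and CYP11A1 are much shorter with the block.

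CYP21A2 (chromosome 6, 32038265 to 32041670, plus strand, hg38) encodes steroid 21-hydroxylase, which opens the branch to cortisol and aldosterone by acting on progesterone and its hydroxylated form. Its level was 15.3, 11.1 and 12.1 CPM under the H295R label and 25.0, 23.3 and 22.2 CPM under the H295R-PM-Ptc+ label. The lowest library labelled H295R-PM-Ptc+ thus lay above the highest labelled H295R. The log2 fold change was 0.88 (SE 0.126, 95% interval 0.59 to 1.16, adjusted p = 0.00670, edgeR), or 1.83-fold. In the same-numbered pairs the log2 difference was 0.71, 1.07 and 0.87. The call held when each library was left out in turn, with a largest adjusted p of 0.0498 without H295R replicate 3, and with the block (adjusted p = 1.22e-06).

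CYP21A2 has a near copy on the same chromosome, the pseudogene CYP21A1P, and reads were counted at 1 primary position where they mapped to both. Of the 2465 stretches of 75 bases, the read length, in the exons of CYP21A2 on chromosome 6, 51.2% also occur in the stretch of the pseudogene. CYP21A1P had 76, 35 and 53 counts under the H295R label and 101, 93 and 86 under the H295R-PM-Ptc+ label. Its log2 fold change was 0.77 (SE 0.257, adjusted p = 0.156, and 0.00701 with the block). The pseudogene took 11.1% to 17.2% of the reads of the pair in the former group and 13.6% to 14.3% in the latter, ranges that overlap. With the reads of both summed into 1 gene the log2 fold change was 0.86 (adjusted p = 0.0111), close to that of CYP21A2 counted alone.

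TNXB, which overlaps CYP21A2 on the opposite strand, had 4 to 18 counts in any library and was not tested. Of the 29 other tested genes within 250 kb of CYP21A2, 14 had a log2 fold change above 0, and their median was -0.0015. Chosen after the values were seen, the called neighbours were C2, a complement gene, at 2.00 (adjusted p = 0.00924), FKBPL at -0.52 (0.0408) and NOTCH4 at -0.78 (0.0453). C2 averaged 0.884 CPM and NOTCH4 2.17 CPM over the 6 libraries, so the size of the former rests on few reads. The fit on group alone called 3.73% of all tested genes. With the block 3 of the 29 were higher and 4 lower, CYP21A1P among the former. Over all tested genes the block fit called 12.1% as higher and 10.4% as lower.

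The promoters of the members called in either fit are printed for CYP21A2 and CYP11A1, together with that of CYP17A1, whose step precedes that of CYP21A2. Each stretch holds the 250 bases before the RefSeq start on GRCh38.p14, read 5′ to 3′ on the strand of the gene. The deposited annotation begins these genes inside the stretches shown. Capitals mark AGGTCA or AAGGTCA on either strand (TGACCT on the other one), the letters that the steroidogenic factor NR5A1 is known to prefer, the longer motif containing the shorter.

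CYP21A2, chr6:32038165-32038414, plus strand: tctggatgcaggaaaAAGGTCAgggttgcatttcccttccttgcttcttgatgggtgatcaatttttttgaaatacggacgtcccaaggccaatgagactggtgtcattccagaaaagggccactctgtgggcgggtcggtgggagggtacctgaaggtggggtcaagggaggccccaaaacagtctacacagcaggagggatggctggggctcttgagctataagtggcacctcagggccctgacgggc
CYP17A1, chr10:102837414-102837663, minus strand: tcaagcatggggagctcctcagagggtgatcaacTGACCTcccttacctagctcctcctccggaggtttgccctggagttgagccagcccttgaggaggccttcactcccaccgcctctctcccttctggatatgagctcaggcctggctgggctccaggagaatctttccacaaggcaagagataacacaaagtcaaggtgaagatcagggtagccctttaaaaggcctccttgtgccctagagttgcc
CYP11A1, chr15:74367647-74367896, minus strand: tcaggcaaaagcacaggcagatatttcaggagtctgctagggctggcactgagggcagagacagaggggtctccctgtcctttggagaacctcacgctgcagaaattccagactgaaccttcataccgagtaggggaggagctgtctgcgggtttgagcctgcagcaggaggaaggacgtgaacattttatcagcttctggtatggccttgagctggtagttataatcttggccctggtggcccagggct

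RefSeq promoters were at hand for 6 members, CYP11A1, CYP17A1, CYP21A2, FDX1, FDXR and HSD3B2. In windows from 250 bases before to 50 after the start, AAGGTCA was present on either strand in CYP21A2 alone of these 6, and in 3.92% of 35116 promoters. The shorter AGGTCA was present in CYP17A1, CYP21A2 and FDX1, and in 13.8% of the promoters. The cyclic AMP element TGACGTCA was in none of the 6 and in 1.85% of the promoters, and TATAAA was in FDX1 and in 11.5% of the promoters. These matches describe the letters of the windows.

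Across the 6 libraries the tested genes with the profile nearest to that of CYP21A2 were PTGS1, RP11-568K15.1 and LPL, at root mean square distances of 0.0648, 0.0839 and 0.0934 in log2 CPM centred on each gene's mean. PTGS1, a prostaglandin synthase, had 427, 376 and 358 counts under the H295R label and 758, 692 and 633 under the H295R-PM-Ptc+ label. LPL, a lipoprotein lipase, had 807, 603 and 622 and then 1290, 1066 and 973.

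STAR (chromosome 8, 38143649 to 38151265, minus strand), the rate-limiting delivery step, was measured at 380, 249 and 266 CPM under the H295R label and at 516, 329 and 346 CPM under the H295R-PM-Ptc+ label. H295R replicate 1 lay above replicates 2 and 3 of the other group, so the groups overlapped. The log2 fold change was 0.41 (SE 0.202, 95% interval -0.04 to 0.87, adjusted p = 0.346, edgeR). Within pairs the log2 difference was 0.44, 0.40 and 0.38, higher in 3 of 3 pairs, and the fit with the block gave an adjusted p of 3.91e-06. Without 1 library the estimate ran from 0.17 (H295R-PM-Ptc+ replicate 1 left out) to 0.62 (H295R replicate 1 left out), and it was not called in any of the 6 fits. Without replicate 1 of both groups the fit on group alone gave 0.39 with an adjusted p of 0.00120. STAR varied between replicates more than the median gene, with a coefficient of variation of 23.8% and 26.0% against medians of 10.7% and 9.20% over all tested genes. STAR is also a gene that the study picked out on these libraries, so its values here are not independent evidence. The direction given here is that of the deposited naming, and it is not set against the direction in the study.

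CYP11A1 (chromosome 15, 74337759 to 74367740, minus strand), the side-chain cleavage enzyme, was at 196, 142 and 155 CPM under the H295R label and 156, 123 and 135 CPM under the H295R-PM-Ptc+ label. The groups overlapped, and the log2 fold change was -0.25 (SE 0.133, adjusted p = 0.391). Within pairs the log2 difference was -0.33, -0.20 and -0.20, lower in 3 of 3 pairs, and the block gave an adjusted p of 0.00100. Without H295R replicate 1 the estimate on group alone was -0.10. Of 11 tested genes within 250 kb, ISLR and STRA6 were called, both as higher, at 1.44 and 1.68 (adjusted p = 0.00430 and 0.00180). They averaged 2.44 and 2.70 CPM, and the same fit called 2.42% of all tested genes as higher. With the block 3 more were called, all lower: SEMA7A at -0.21 (adjusted p = 0.0219), UBL7 at -0.15 (0.0240) and UBL7-AS1 at -0.35 (0.0108). The block fit called 10.4% of all tested genes as lower. These neighbours were named after their values were seen.

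The middle steps HSD3B2 and CYP17A1 passed neither test. HSD3B2 (chromosome 1, 119414931 to 119423035, plus strand), which turns pregnenolone and its relatives into progesterone and the corresponding steroids, was at 17.7, 17.4 and 14.6 CPM under the H295R label and 21.0, 14.7 and 14.1 CPM under the H295R-PM-Ptc+ label. Its estimate lay near 0 (log2 fold change 0.01, 95% interval -0.35 to 0.37, adjusted p = 0.992), and its sign changed with the fit. CYP17A1 (chromosome 10, 102830531 to 102837533, minus strand), the 17-hydroxylase and 17,20-lyase that leads to cortisol and androgens, was at 136, 128 and 135 CPM and then 138, 122 and 107 CPM. Its log2 fold change was -0.12 (95% interval -0.34 to 0.10, adjusted p = 0.589, and 0.125 with the block). Leaving out 1 library at a time moved it between -0.23 (H295R-PM-Ptc+ replicate 1 left out) and -0.05 (replicate 3 of that group left out). HSD3B1, the placental and peripheral sister of HSD3B2, had at most 3 counts in any library, and the antisense gene CYP17A1-AS1 at most 6.

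The terminal enzymes had few counts. CYP11B1 (chromosome 8, 142872356 to 142879846), the 11-hydroxylase of cortisol synthesis, had 2, 1 and 2 counts under the H295R label and 0, 1 and 3 under the H295R-PM-Ptc+ label. No library exceeded the floor of 3 counts, and no fold was computed. CYP11B2 (chromosome 8, 142910559 to 142917843), aldosterone synthase, had 13, 3 and 10 counts and then 22, 18 and 10. The ranges overlap, with H295R replicate 1 above H295R-PM-Ptc+ replicate 3, and the log2 fold change of 0.93 had a 95% interval from -0.13 to 2.00 (adjusted p = 0.358, and 0.113 with the block), so a difference was not detectable at this depth. Within pairs the log2 difference was 0.66, 2.62 and 0.09, and the estimate ran from 0.51 without H295R replicate 2 to 1.37 without H295R replicate 1. The 2 genes are close relatives that lie near each other on chromosome 8, and their few reads could have been split between them.

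None of the 3 electron carriers was called in either fit. POR (chromosome 7, 75899200 to 75986855), the reductase of microsomal P450 enzymes, was at 227, 219 and 249 CPM under the H295R label and 237, 238 and 261 CPM under the H295R-PM-Ptc+ label, a log2 fold change of 0.08 (95% interval -0.10 to 0.27). Without 1 library that of POR ran from 0.026 (H295R-PM-Ptc+ replicate 3 left out) and 0.042 (H295R replicate 2) to 0.12 (H295R replicate 3). FDXR (chromosome 17, 74862497 to 74873031), the ferredoxin reductase, was at 216, 178 and 200 CPM and then 218, 191 and 214 CPM, a log2 fold change of 0.07 (95% interval -0.14 to 0.28). Both were higher in 3 of 3 pairs and overlapped between the groups, and the sign of FDXR changed in 1 alternative fit. FDX1 (chromosome 11, 110429883 to 110464881), the ferredoxin itself, was at 84.3, 88.9 and 83.3 CPM and then 109, 84.9 and 82.5 CPM, a log2 fold change of 0.11 (95% interval -0.14 to 0.36) with H295R-PM-Ptc+ replicate 1 as the highest library. Without that library it was -0.04. The related ferredoxin FDX1L stood at 0.12 on the log2 scale (adjusted p = 0.661).

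The make-up of the line was then described as the share of each gene in the summed counts per kilobase of the 10 members, which needs no scaling between libraries. STAR took 30.2%, 24.6% and 24.5% under the H295R label and 36.6%, 29.9% and 30.2% under the H295R-PM-Ptc+ label. Its mean share was 26.4% ± 3.28 and 32.3% ± 3.79 (SD, n = 3 each), and it was higher by 6.41, 5.37 and 5.69 percentage points in the 3 pairs, although the groups overlapped. An exact permutation test over the 6 libraries, two-sided, gave p = 0.2, and 3 against 3 cannot give less than 0.1.

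The share of CYP11A1 was 16.8%, 15.1% and 15.4% and then 12.0%, 12.1% and 12.7%. The groups did not overlap, and the means differed by -3.52 percentage points (exact permutation p = 0.1, the smallest possible, and 0.4 after adjustment over the 10 members). The share of CYP21A2 was 1.58%, 1.41% and 1.45% and then 2.30%, 2.74% and 2.51%, again without overlap (difference 1.04 points, exact permutation p = 0.1, adjusted 0.4). CYP17A1 was lower by 1.14, 1.76 and 3.48 points in the pairs, from a mean share of 13.3% to 11.2%, with overlapping groups. The 10 shares add up to the whole, so a higher share of STAR lowers the others. With STAR left out of the sum, CYP11A1 differed by -3.39 points and CYP17A1 by -1.54, while FDXR moved from -0.56 to 1.30 points and FDX1 from -0.18 to 0.856.

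The shares of the other 6 members overlapped between the groups. FDXR (18.6% ± 0.687 and 18.0% ± 1.70), POR (12.9% ± 1.55 and 12.6% ± 1.96) and FDX1 (9.08% ± 1.21 and 8.89% ± 0.370) each differed by less than 1 SD of their libraries labelled H295R while STAR was in the sum. HSD3B2 held 2.27%, 2.77% and 2.17% and then 2.41%, 2.15% and 1.99%. CYP11B2 held 0.0395% ± 0.0216 and 0.0705% ± 0.0193, and CYP11B1 at most 0.0101% of the line in any library.

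**Figure D3:**
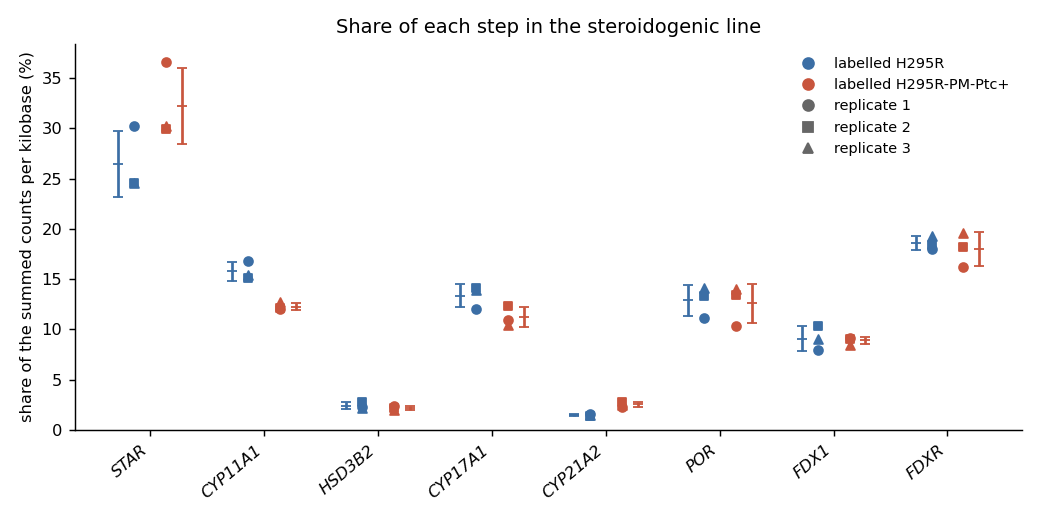
Share of each member in the summed counts per kilobase of the line, in percent, with points for the 6 libraries and bars for the mean ± SD of each group of 3; CYP11B1 and CYP11B2, both under 1%, are left out. The groups do not overlap for CYP11A1 (lower under the H295R-PM-Ptc+ label) and CYP21A2 (higher), while STAR is highest in both replicate 1 libraries.

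Ratios of neighbouring steps within a library likewise need no scaling. The log2 ratio of CYP11A1 to STAR counts was -0.95, -0.81 and -0.78 under the H295R label and -1.72, -1.42 and -1.36 under the H295R-PM-Ptc+ label. The groups did not overlap, and the means differed by -0.65 on the log2 scale (pairs -0.77, -0.60 and -0.58, exact permutation p = 0.1, adjusted 0.3 over 6 ratios). The log2 ratio of CYP17A1 to CYP21A2 was 3.15, 3.54 and 3.48 and then 2.46, 2.39 and 2.27. These groups did not overlap either, with a difference of -1.02 on the log2 scale (pairs -0.69, -1.15 and -1.21, exact permutation p = 0.1, adjusted 0.3).

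Electron supply was set against the enzymes it serves in the same way. FDX1 to CYP11A1 was higher in 3 of 3 pairs, by 0.70, 0.13 and 0.19 on the log2 scale, and POR to CYP17A1 by 0.04, 0.20 and 0.41. Both had overlapping groups (exact permutation p = 0.2 each, adjusted 0.3). HSD3B2 to CYP17A1 and FDXR to FDX1 changed sign between pairs, with mean log2 differences of 0.12 and -0.03. In all, 2 of the 6 ratios did not overlap and 4 kept 1 sign in the 3 pairs. The 2 further ratios planned with CYP11B1 gave no value in the library where it had no count.

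**Figure D4:**
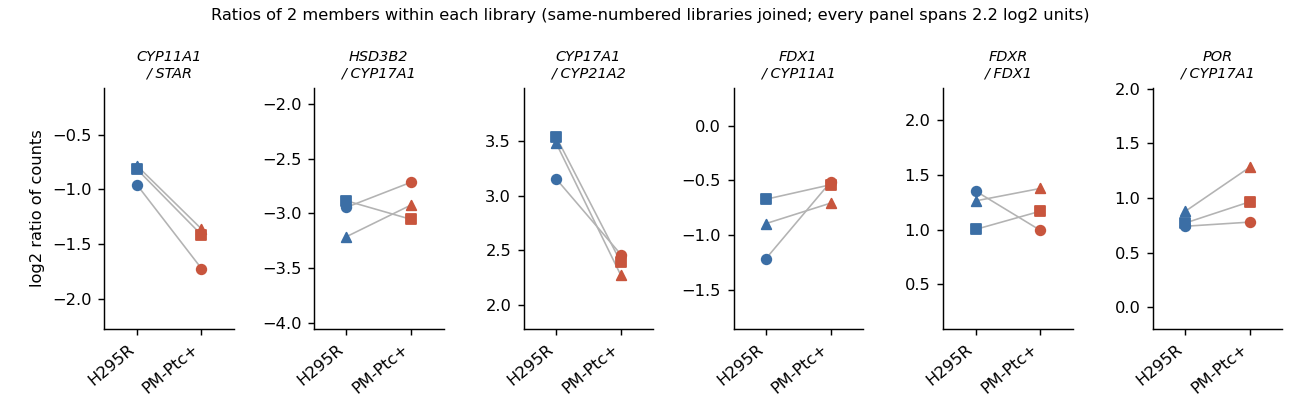
Log2 ratio of the counts of 2 members within each library, for 6 ratios, with same-numbered libraries joined and every panel spanning an equal range. CYP11A1 to STAR and CYP17A1 to CYP21A2 are lower in all 3 libraries labelled H295R-PM-Ptc+ without overlap, and the other 4 ratios overlap.

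The wider pathway was read from 5 lists of genes upstream, beside and downstream of the line. Cholesterol delivery held the most calls, with 3 of 16 tested genes higher and none lower (median log2 fold change 0.07). SCARB1, the receptor that takes up cholesteryl esters from high-density lipoprotein, had 19974, 19363 and 21044 counts under the H295R label and 31275, 31190 and 30353 under the H295R-PM-Ptc+ label. The groups lay well apart, with a log2 fold change of 0.63 (SE 0.0803, adjusted p = 0.00345). ATAD3B (0.41, adjusted p = 0.0353) and ATAD3A (0.36, adjusted p = 0.0412), neighbouring near copies that encode mitochondrial membrane ATPases, were the other called genes. Without 1 library ATAD3A was called in none of 6 fits (adjusted p 0.0537 to 0.166) and ATAD3B only without H295R replicate 1 (0.0294, otherwise 0.0924 to 0.151), and the copies may share reads.

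Hormone input had 1 of 9 tested genes higher and none lower (median 0.06). AGTR1, the angiotensin II receptor that drives aldosterone synthesis, had 324, 513 and 523 counts and then 733, 734 and 703 (log2 fold change 0.69, SE 0.150, adjusted p = 0.0412). With 1 library left out it was called only without H295R replicate 1 (adjusted p 0.00910, otherwise 0.0656 to 0.149). The corticotropin receptor MC2R had 73 to 108 counts in any library and a difference of -0.07 on the log2 scale (adjusted p = 0.891), and its accessory protein MRAP one of 0.24 (adjusted p = 0.499).

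Among the regulators 1 of 15 tested genes was lower and none higher (median -0.13). That gene was GATA6, a zinc-finger factor of the adrenal cortex, with 304, 364 and 381 counts and then 260, 250 and 213 (log2 fold change -0.53, SE 0.109, adjusted p = 0.0348). NR5A1, the master regulator of the line, had 8273 to 9729 counts under the H295R label and 8335 to 9028 under the H295R-PM-Ptc+ label, a difference of -0.06 on the log2 scale (adjusted p = 0.797). NR0B1, which represses NR5A1-driven transcription, had one of 0.03 (adjusted p = 0.955). With the block 5 regulators were lower, GATA6 among them.

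Of the further steroid enzymes 1 of 17 tested genes was higher and none lower (median -0.10). SULT2A1, which sulfates dehydroepiandrosterone, had 1397, 1949 and 1866 counts and then 3023, 2553 and 2265 (log2 fold change 0.60, SE 0.120, adjusted p = 0.0306). CYB5A, the cytochrome b5 that favours the lyase reaction of CYP17A1, stood at -0.10 on the log2 scale (adjusted p = 0.507). With 1 library left out, GATA6 and SULT2A1 were each called only without H295R replicate 1 (adjusted p 0.0121 and 0.0208), and otherwise reached 0.0634 to 0.145 and 0.0617 to 0.0879.

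The carrier partners were mostly other enzymes fed by POR or by the ferredoxins, with FDX1L and the reductase CYB5R3 also listed. They had 2 of 14 tested genes higher and none lower (median 0.14). CYP2S1, a microsomal P450, had 13, 8 and 11 counts and then 91, 58 and 70 (log2 fold change 2.77, SE 0.272, adjusted p = 0.00113). CYP24A1, the mitochondrial vitamin D 24-hydroxylase, had 1, 2 and 4 counts and then 18, 15 and 15 (log2 fold change 2.72, SE 0.425, adjusted p = 0.00988), a size that rests on very few reads under the H295R label. Its call did not hold without H295R replicate 2 (adjusted p = 0.0564). Over the 5 lists 8 of 71 tested genes were called, against 3.73% of all tested genes, and 26 with the block, against 22.5%. The lists were drawn up with earlier results of these data known, and these counts are a description.

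**Figure D5:**
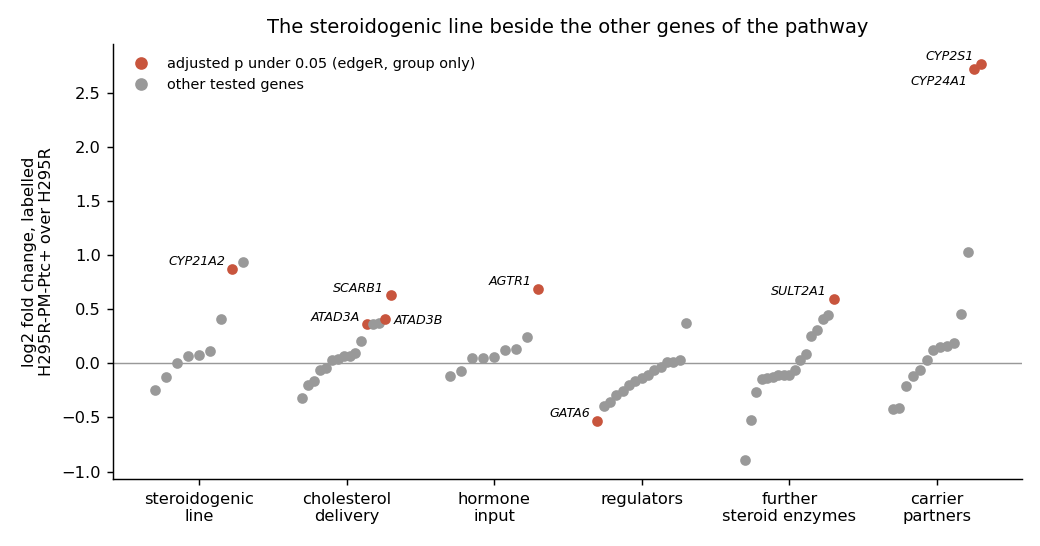
Log2 fold change (H295R-PM-Ptc+ label over H295R label, edgeR on group alone) of every tested gene of the steroidogenic line and of the 5 pathway lists, sorted within each list, with genes at an adjusted p under 0.05 coloured and named. Most genes lie between -0.5 and 0.5, and the 8 called genes outside the line are GATA6 below 0 and 7 above 0.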

How the data were processed

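RNA of 6 H295R libraries was sequenced by the authors as 75-base read pairs. Per the paper's methods and the submitters' processing notes, the authors aligned reads to hg38 with the aligner STAR 2.4.0a and deposited raw counts per gene name from featureCounts (Subread 1.5.0-p3 in the notes; another version in the methods), stranded, with multiply mapped reads kept at their primary position. The sources differ on the library kit. Deposited lengths include alternate contigs for CYP21A2 (5.53 times its exons on chromosome 6), so exon lengths on the main chromosomes were used.

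The main test was that of edgeR 4.0.16 under R 4.3.3 on counts (TMM normalization, filterByExpr, quasi-likelihood F-test, two-sided, group as the only term, Benjamini-Hochberg adjustment over 16710 genes holding 99.9% of counts), after trials on simulated data. The row without a gene name held 0 counts. The alternatives were a block for the replicate number, DESeq2 1.42.0, limma-voom (limma 3.58.1), other size factors, filters and lengths, and leaving out each library. DESeq2 and limma-voom with the block, the block without each pair, leaving out replicate 1 of both groups, summing CYP21A2 with its pseudogene, and the deposited length were chosen after seeing the data. Shares and ratios were tested by exact permutation over libraries. A count floor of 3 per library was used. Tables were handled in Python 3.11.15 with pandas 2.3.3 and drawn with matplotlib 3.10.9.

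Named genes were every member, PTCH1, up to 4 called genes of each pathway list, a set of genes always given (NR5A1, NR0B1, MC2R, MRAP, CYB5A, SULT2A1, SCARB1, HSD3B1, FDX1L, CYP21A1P and TNXB), and the 3 genes nearest in profile to a called member (0.5 added to each count). Members and lists were chosen with earlier results of these data known. Columns of the authors' own comparisons were not used.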

Additional observations from a re-analysis of the deposited data

How the results depend on the processing

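The fold changes of the members kept their direction under every alternative except those of HSD3B2, FDX1 and FDXR, which lay near 0. CYP21A2 was called in all 19 alternatives. The number of called members, 1 on group alone, was 3 with the replicate block, 3 with DESeq2 and the block, and 3 with limma-voom and the block, STAR and CYP11A1 being added by the pairing. With the block and without 1 same-numbered pair it was 4, 4 and 3 for replicates 1, 2 and 3, CYP17A1 (adjusted p = 0.00500) and FDX1 (0.0378) being the additions, and without replicate 1 of both groups but no block it was 2. Of the 71 tested pathway genes, 8 were called on group alone, 26 with the block, 17 with DESeq2 and the block, 26 with limma-voom and the block, 31, 23 and 20 with the block and without pair 1, 2 or 3, and 18 without replicate 1 of both groups. Leaving out 1 library gave 3 to 7 of them. The calls over all tested genes moved as well, from 624 of 16710 on group alone to 3758 with the block. DESeq2 and limma-voom with the block called 1774 and 3704 of 16710. The block without pair 1, 2 or 3 called 4190 of 16756, 2830 of 16805 and 2147 of 16925. Without replicate 1 of both groups the fit on group alone called 2013 of 16756, and leaving out 1 library 219 to 810. Read in same-numbered pairs, 4 of the 6 ratios kept 1 sign, against 2 whose groups did not overlap; no block was fitted to the ratios.

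HSD3B2 (0.01) turned to -0.0095 with limma-voom, -0.0062 with the block, -0.013 with DESeq2 and the block, -0.00024 with limma-voom and the block, -0.15 and -0.00024 with the block without pair 1 or 3, -0.15 without replicate 1 of both groups, and ranged from -0.21 to 0.10 without 1 library. FDX1 (0.11) turned to -0.042 with the block without pair 1 and without replicate 1 of both groups, and ranged from -0.038 to 0.17 without 1 library, and FDXR from -0.0014 to 0.13. NR5A1 turned to 0.013 with the block without pair 1 and to 0.011 without replicate 1 of both groups, and ranged from -0.14 to 0.014 without 1 library. NR0B1 turned to -0.060 with the block without pair 2 and ranged from -0.083 to 0.10, and MC2R turned to 0.066 with the block without pair 3 and ranged from -0.21 to 0.0019. For these sign changes the cause was not tested.

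The share of CYP21A2 differed by 1.04 points per kilobase of chromosome 6 exon, 0.783 on undivided counts, 0.195 with the deposited length and 1.70 with STAR left out. The shares gave no value for STAR with STAR left out, and CYP11B2 was not tested where at least 10 counts were asked of every library. Depth limits CYP11B1 and CYP11B2, and 3 libraries a group limit the exact tests.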

Other observations

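Outside the members and the pathway lists, a few marker genes fixed as checks of cell identity carried many counts. CHGB, a secretory granule protein of neuroendocrine cells, had 1764, 1637 and 1875 counts in the libraries labelled H295R and 1525, 1254 and 1225 in those labelled H295R-PM-Ptc+ (log2 fold change -0.39, adjusted p = 0.0579 on group alone and 7.38e-05 with the replicate block, edgeR), whereas CHGA had 18 to 39 counts. AMH, the anti-Müllerian hormone, listed as a gonadal marker, had 536, 378 and 342 counts and then 637, 676 and 404, with overlapping groups (adjusted p = 0.322 on group alone and 0.00519 with the block) and higher values in 3 of 3 pairs. COL1A1, a collagen listed as a stromal marker, had 188 to 244 counts in any library, and FOXL2 and LHCGR had none.

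The fit with the replicate block called 12.1% of all tested genes as higher and 10.4% as lower. Of 16 tested genes of cholesterol delivery it called 5 as higher and 3 as lower, of 17 further steroid enzymes 3 and 2, of 14 carrier partners 4 and 2, and of 9 hormone input genes 1 and 0.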
